A study of Mus musculus with 12 samples.

Results

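Messenger RNA of 9 genes that make, carry, degrade or sense retinoic acid was followed through 12 sequencing libraries from the upper face of mouse embryos. The genes were taken by name, as Aldh1a2, Aldh1a3, Dhrs3, Crabp1, Crabp2, Cyp26b1, Rara, Rarb and Rarg, and all 9 were found among the 53392 gene identifiers of the tables. The libraries formed 4 groups of 3, all on the 129S4 strain background. Palatal shelves, the outgrowths that meet to form the secondary palate, were taken at embryonic day E13.5 from Pdgfra+/+ embryos (wild type) and from PdgfraPI3K/PI3K embryos (PI3K). The PI3K allele is a knock-in of the receptor PDGFRα that no longer binds the kinase PI3K. Maxillary processes, the facial swellings from which the shelves grow, were taken at embryonic day E11.5 from embryos that all carried the floxed Srsf3 allele in 2 copies. Those without the Cre transgene (Srsf3fl/fl;Wnt1-Cre+/+) were the controls, and those with it (Srsf3fl/fl;Wnt1-Cre+/Tg) were labelled Srsf3 cKO. Wnt1-Cre acts in the neural crest lineage, so blood vessels, blood and ectoderm of the same embryos are not its targets. Both tissues were treated with trypsin to take off the ectoderm and are labelled mesenchyme.

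Retinoic acid is a diffusible signal made from vitamin A. Retinol is oxidised to retinaldehyde, which DHRS3 can reduce back, and retinaldehyde dehydrogenases such as ALDH1A2 and ALDH1A3 turn it into retinoic acid. CRABP1 and CRABP2 bind the acid in the cytoplasm, CYP26 enzymes break it down, and the nuclear receptors RARα, RARβ and RARγ bind DNA with an RXR partner and switch target genes on when the ligand is present. In the embryonic face both a lack and an excess of retinoic acid are known to disturb growth of the jaws and the palate.

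The receptor pair binds direct repeats of a short core motif, and the repeat in the Rarb promoter is the textbook example. Promoter windows of RefSeq (GRCm38.p6, 250 bases before to 50 after each annotated start) were available for 7 of the 9 genes, in 13 windows. They were searched on both strands for 2 core motifs (AGGTCA or AGTTCA or GGGTCA or GGTTCA) in the same direction with 1, 2 or 5 bases between them, called DR1, DR2 and DR5. Among all 32851 windows a DR5 was found in 32 (0.0974%), a DR1 in 73 (0.222%) and a DR2 in 88 (0.268%). Rarb was the only one of the 7 genes with a match, a DR5 that lay 53 to 37 bases before the start. A gene of the wider pathway, Cyp26a1, which encodes another enzyme that degrades retinoic acid, had a DR5 read on the opposite strand, 32 to 16 bases before its start. Both stretches are shown 5′ to 3′ on the strand of the gene, because these are the members and tested pathway genes with a match, and the capitals mark the 2 core motifs.
Rarb, chr14:16575477-16575569, minus strand: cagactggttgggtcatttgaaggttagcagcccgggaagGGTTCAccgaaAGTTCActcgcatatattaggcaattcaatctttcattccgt
Cyp26a1, chr19:37697736-37697807, plus strand: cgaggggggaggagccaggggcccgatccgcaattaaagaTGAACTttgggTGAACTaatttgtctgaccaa
A match describes these letters and does not show that a receptor was bound. The values of Rarb and Cyp26a1 are given in the comparisons. Bco1, a gene of the wider pathway that was too low to test, also had a match. It was a DR1 read on the opposite strand, 56 to 44 bases before the start.

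Depth ran from 30.5 to 37.4 M (megacounts) of estimated counts in the palatal shelf and from 15.9 to 27.9 M in the maxillary process. Read counts are given in CPM, normalised to library depth by TMM factors over all 12 libraries, and levels are compared between genes in TPM, which is corrected for transcript length. Srsf3, the gene to be deleted, had 621, 595 and 561 CPM in controls against 478, 694 and 640 CPM in libraries labelled cKO. The log2 fold change of 0.03 (standard error 0.14, adjusted p = 0.954, edgeR quasi-likelihood test) lay within the spread, so the gene total did not show the deletion, and such a total cannot show whether some exons are missing. Pdgfra had 483, 457 and 488 CPM in wild-type and 436, 464 and 544 CPM in PI3K palatal shelves, and a change in its protein would not be visible in that total. In TPM its groups did not overlap, with 130 to 145 TPM in wild-type and 186 to 243 TPM in PI3K shelves. Why Pdgfra differed in TPM and not in CPM was not tested. Mesenchyme markers (8 genes, all tested) summed to 4096 to 13490 CPM over the libraries. The label of mesenchyme held less well for the palatal shelf, where 11 markers of surface ectoderm summed to 743 to 949 CPM in wild-type and 430 to 1034 CPM in PI3K libraries. Those 11 markers summed to 2.27 to 11.0 CPM in the control maxillary process and 11.7 to 24.5 CPM in libraries labelled cKO. In bulk tissue, fewer cells of a type and less RNA per cell cannot be told apart.

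**Figure D1:**
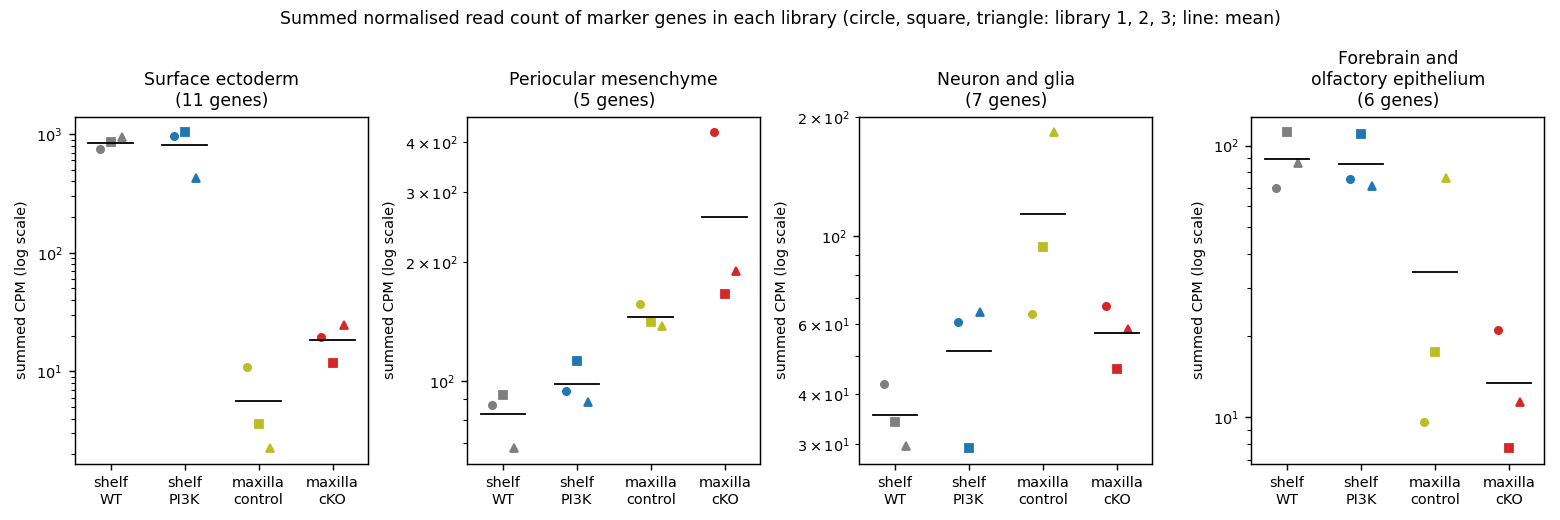
Summed normalised read count (CPM, log scale) of marker genes of surface ectoderm, periocular mesenchyme, neurons and glia, and forebrain and olfactory epithelium in each of the 12 libraries, with the group mean as a line. Ectoderm markers sat between 430 and 1034 CPM in the palatal shelf and between 2.27 and 24.5 CPM in the maxillary process, labelled cKO library 1 had the highest periocular sum (424 CPM), and control library 3 had the highest maxillary sums of neuron and forebrain genes.

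The carriers were the most abundant of the 9 transcripts per length. Crabp1 (ENSMUSG00000032291.8; GRCm38 chromosome 9, 54764748 to 54773110, plus strand) had 931 ± 91.6 TPM in the control maxillary process, 722 ± 129 TPM in the libraries labelled cKO, 425 ± 8.72 TPM in the wild-type shelf and 383 ± 3.45 TPM in the PI3K shelf (SD, n = 3 each). In TPM no 2 neighbouring groups in that order overlapped. In CPM the controls (299.5 to 397) and the libraries labelled cKO (222 to 316) did overlap. Crabp2 (ENSMUSG00000004885.5; chromosome 3, 87948666 to 87953376, plus strand) had the same order, with 549 ± 71.6, 371 ± 47.1, 262 ± 32.1 and 243 ± 15.2 TPM. Only its 2 palatal shelf groups overlapped.

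Among the receptors, Rarg had the highest TPM and Rarb the lowest in all 4 groups. Rarg (ENSMUSG00000001288.15; chromosome 15, 102234938 to 102257517, minus strand) had 167 ± 36.4 TPM in the PI3K shelf, 165 ± 12.4 in the control maxillary process, 137 ± 6.55 in the wild-type shelf and 136 ± 24.4 in the libraries labelled cKO. Control maxillary process and wild-type shelf did not overlap, and the other neighbours in that order did. Rara (ENSMUSG00000037992.16; chromosome 11, 98927818 to 98974942, plus strand) ran from 110 ± 26.9 TPM in the PI3K shelf over 88.8 ± 9.40 in the wild-type shelf and 67.6 ± 7.22 in the control maxillary process to 53.2 ± 3.06 in the libraries labelled cKO. In TPM the 2 shelf groups overlapped and the other neighbours did not. In CPM the wild-type shelf (113 to 139) and the control maxillary process (102 to 114) overlapped as well. Rarb (ENSMUSG00000017491.9; chromosome 14, 16430839 to 16819156, minus strand) had 31.5 ± 1.16 TPM in the control maxillary process, 31.4 ± 15.3 in the libraries labelled cKO, 16.9 ± 7.03 in the PI3K shelf and 9.93 ± 2.40 in the wild-type shelf. Every neighbouring pair of Rarb overlapped in TPM, but in CPM the libraries labelled cKO all lay above the PI3K shelf. Its count is uncertain, because 1793 of its 5265 annotated exon bases are shared with Top2b on the opposite strand and the strand setting of the counting is not given in the sources used here.

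The enzymes differed most from each other. Cyp26b1 (ENSMUSG00000063415.12; chromosome 6, 84571414 to 84593908, minus strand), the degrading enzyme, had 86.2 ± 14.8 TPM in the wild-type shelf, 74.2 ± 7.85 in the PI3K shelf, 45.8 ± 32.2 in the control maxillary process and 19.2 ± 16.7 in the libraries labelled cKO, and neighbouring groups all overlapped. Aldh1a2 (ENSMUSG00000013584.5; chromosome 9, 71215789 to 71296243, plus strand), which makes retinoic acid, had 95.3 ± 29.8 TPM in the PI3K shelf, 46.2 ± 2.14 in the wild-type shelf, 40.3 ± 16.9 in the control maxillary process and 7.27 ± 2.12 in the libraries labelled cKO. Wild-type shelf and control maxillary process overlapped, and both ends of the order stood apart from their neighbours. Dhrs3 (ENSMUSG00000066026.14; chromosome 4, 144892827 to 144928209, plus strand) had 34.6 ± 8.08 TPM in the PI3K shelf, 23.7 ± 3.41 in the wild-type shelf, 20.1 ± 1.66 in the control maxillary process and 19.7 ± 5.88 in the libraries labelled cKO. Its 2 shelf groups did not overlap in TPM, and the other neighbours did. The second synthesising enzyme, Aldh1a3 (ENSMUSG00000015134.15; chromosome 7, 66390890 to 66427517, minus strand), was the least abundant member in every group, with means from 1.70 to 4.17 TPM and overlap between all neighbours.

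**Figure D2:**
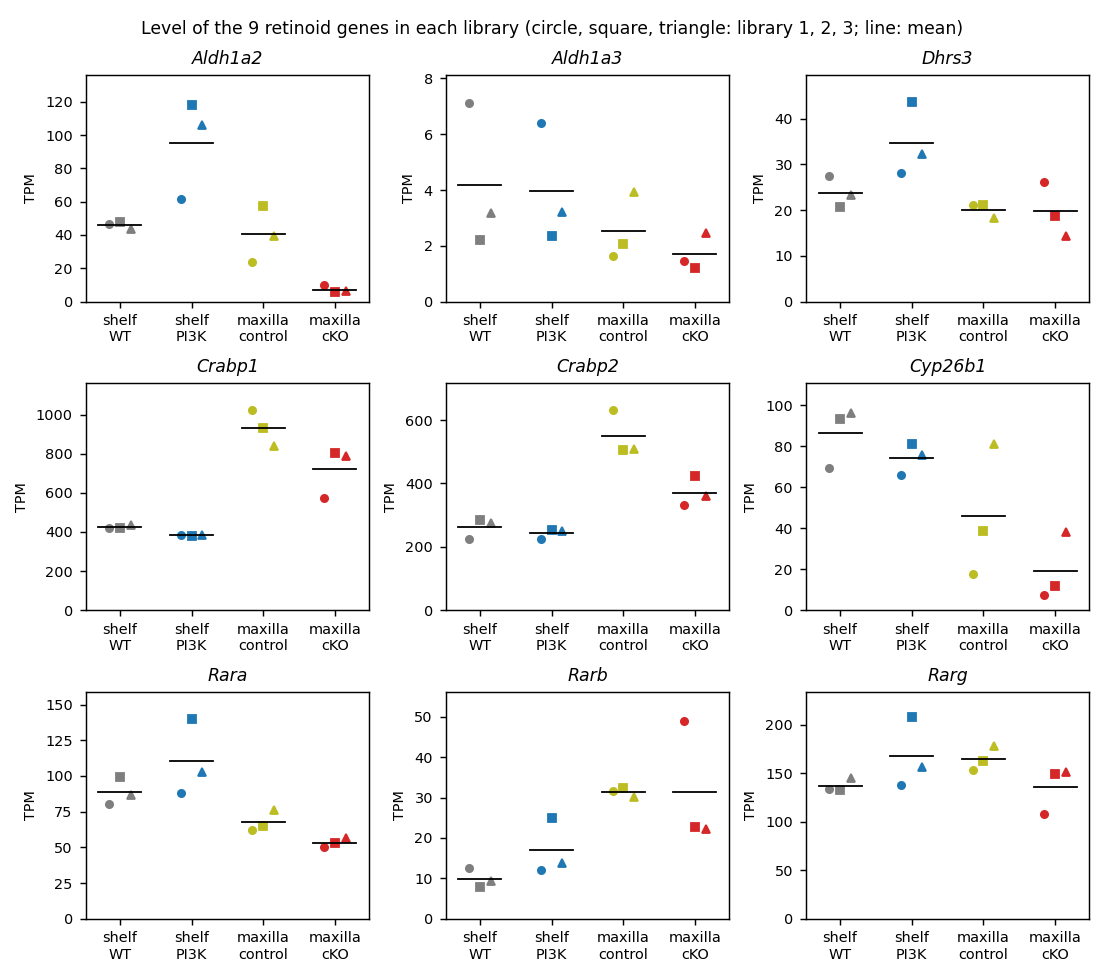
Level of each of the 9 genes in TPM in every library (circle, square and triangle for library 1, 2 and 3) with the group mean as a line and linear axes that start at 0. Crabp1 and Crabp2 were highest in the control maxillary process, Aldh1a2 ran from a mean of 95.3 TPM in the PI3K shelf to 7.27 TPM in the libraries labelled cKO, and the 3 control libraries of Cyp26b1 were far apart.

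Embryos with and without Cre were compared to ask what deletion of Srsf3 in the neural crest does to the maxillary process. Aldh1a2 was lower in all 3 libraries labelled cKO, 8 of the 9 genes had a lower mean there, and none of the 9 passed the false discovery rate (FDR) of 0.05. That threshold was passed by 12 of 14254 genes tested (0.0842%). A log2 fold change above 0 was found in 50.7% of all genes. The 8 lower genes include Dhrs3, whose log2 fold change was only -0.01 and changed sign on leaving out single libraries. With an unadjusted p under 0.05, Aldh1a2, Rara and Crabp2 were lower, 3 of 9 genes, against 5.91% of all genes. Groups did not overlap for these 3 and Rarg, all lower, against 9.75% of all genes. The median log2 fold change of the 9 genes was -0.32, and that of all genes was 0.00.

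Aldh1a2 had 32.0, 76.8 and 49.1 CPM in controls against 13.0, 7.84 and 8.51 CPM in libraries labelled cKO. The highest of the latter was below the lowest control, although the controls themselves spread widely. The mean was 5.37-fold lower (95% interval 3.06 to 9.44), a log2 fold change of -2.43 with a standard error of 0.35. The unadjusted p of 0.000161 was the 25th smallest of all genes, and after Benjamini-Hochberg adjustment p was 0.0878 in edgeR. The difference passed the FDR threshold without a filter on low counts (adjusted p = 0.00144, edgeR) and with DESeq2 (9.49e-11). It passed in none of the 6 fits that left out a library, where the log2 fold change ran from -2.69 to -2.04 and the adjusted p from 0.0583 to 0.343. The value of -2.69 was the one without labelled cKO library 1, which stood apart in several markers.

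The other enzymes gave no such separation. Aldh1a3 had 2.66, 3.52 and 6.24 CPM in controls against 1.37, 1.48 and 4.00 CPM in libraries labelled cKO, overlapping groups whose log2 fold change was -0.87 (standard error 0.52). Dhrs3, whose product lowers the supply of retinaldehyde, had 18.5, 17.7 and 12.9 against 20.3, 15.3 and 13.1 CPM, and the log2 fold change was -0.01 with a 95% interval from -0.50 to 0.49. Its sign changed on leaving out single libraries, with a range of -0.20 to 0.13.

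Cyp26b1 had 48.8, 106 and 206 CPM in controls against 20.7, 33.3 and 105 CPM in libraries labelled cKO. Each group spanned a wide range and the groups overlapped, with library 3 the highest of each. The log2 fold change was -1.19 with a 95% interval from -2.78 to 0.40 (adjusted p = 0.535, edgeR quasi-likelihood test). Leaving out control library 3 gave -0.54, and leaving out labelled cKO library 3 gave -2.15. Control library 3 also had the highest maxillary sum of neuron and glia markers (183 CPM, against 63.7 and 94.3 in the other controls) and of forebrain and olfactory markers (75.8 CPM, against 9.66 and 17.5). Of the latter sum, 73.0 CPM was Emx2. The part of these in the result was not tested.

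Crabp2, which is known to hand retinoic acid to the receptors, had 298, 235 and 221 CPM in controls against 156, 202 and 167 CPM in libraries labelled cKO. All 3 of the latter lay below the controls, and the log2 fold change was -0.52 (standard error 0.14, adjusted p = 0.280, edgeR quasi-likelihood test). Crabp1, thought to act more as a buffer, had 397, 354 and 299.5 CPM against 222, 316 and 300.02 CPM. Its groups overlapped, and the log2 fold change was -0.32 (standard error 0.16).

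Among the receptors, Rara had 102, 105 and 114 CPM in controls against 80.6, 87.4 and 89.7 CPM in libraries labelled cKO. The groups did not overlap and each was narrow, and the log2 fold change was -0.31 (standard error 0.09, adjusted p = 0.280, edgeR quasi-likelihood test). Rarg had 262, 268 and 275 CPM against 177, 252 and 250.2 CPM, a log2 fold change of -0.24 (standard error 0.14) that was -0.09 without labelled cKO library 1. Rarb, the receptor gene with the DR5, had 52.9, 50.8 and 45.8 CPM in controls against 81.2, 34.7 and 37.1 CPM in libraries labelled cKO. Library 1 was above all controls and the other 2 below them. The log2 fold change of 0.04 (standard error 0.32) turned to -0.47 without labelled cKO library 1.

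Marker genes of other cells had mostly higher sums in the libraries labelled cKO. Periocular mesenchyme genes (5 tested, 4 higher) summed to 138 to 156 CPM in controls and to 424, 166 and 190 CPM in libraries labelled cKO. Endothelial genes (6 of 6 higher) summed to 289 to 301 and 388 to 756 CPM. None of these 6 had overlapping groups, where 18.2% of all genes had none in either direction. Surface ectoderm genes (8 of 11 tested, all 8 higher) summed to 2.27 to 11.0 and 11.7 to 24.5 CPM. Mesenchyme markers (7 of 8 lower) summed to 4161 to 6359 and 4096 to 4646 CPM. Neuron and glia genes went the other way (5 of 7 tested, 0 higher), with sums of 63.7 to 183 and 46.3 to 66.7 CPM. No gene of these lists passed the FDR threshold, none of their defining markers was at 0 throughout, and their part in the values of the 9 genes was not tested.

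**Figure D3:**
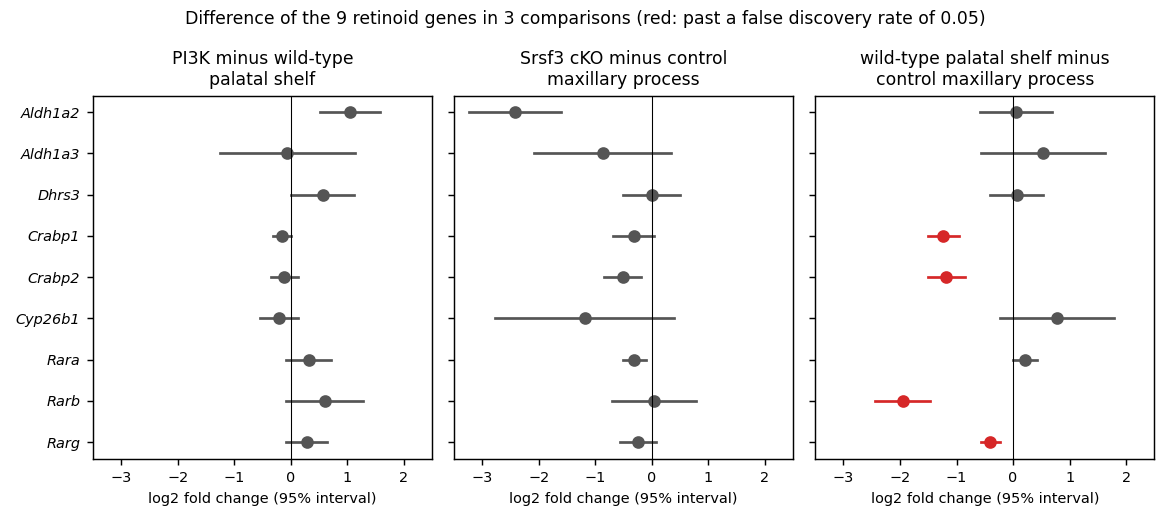
Log2 fold change of each of the 9 genes in the 3 comparisons (points) with its 95% interval (bars), red where the FDR of 0.05 was passed. In the maxillary comparison the interval of Aldh1a2 ran from -3.24 to -1.61 without passing the threshold, in the palatal shelf that of Aldh1a2 ran from 0.52 to 1.58, and between the tissues Rarb, Rarg, Crabp1 and Crabp2 passed.

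The rest of the pathway was read from 3 lists. Of 12 partner receptors and coregulators, all 12 were tested in the maxillary process and 0 passed. Of 13 genes known to respond to retinoic acid, 8 were tested and 0 passed, and of 18 genes of retinoid metabolism and transport, 11 were tested and 0 passed. Medians of the log2 fold change were 0.05, -0.05 and -0.11. That of the response genes had no stable sign, from -0.44 without labelled cKO library 1 to 0.18 without labelled cKO library 3, and it was 0.50 without a filter on low counts. Some genes were too low to test in any comparison, among them Hoxb1, Cdx1, Stra8, Rarres1, Dhrs9, Bco1, Lrat and Ttr.

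Response genes were lower and higher side by side. Meis2, a homeobox gene of the cranial neural crest, had 308, 318 and 320.0 CPM in controls against 80.5, 149 and 137 CPM in libraries labelled cKO, a log2 fold change of -1.36 (standard error 0.21, adjusted p = 0.0954, edgeR quasi-likelihood test). Its relative Meis1 had 26.7, 20.6 and 25.0 CPM against 8.97, 8.37 and 12.2 CPM, a log2 fold change of -1.29 (standard error 0.19, adjusted p = 0.0878, edgeR quasi-likelihood test). In both genes every library labelled cKO was below every control, as it was for the transcriptional repressor gene Zfp503 (123, 179.9 and 203 against 30.6, 71.1 and 95.8 CPM). Nr2f2, which encodes the orphan nuclear receptor COUP-TFII, went the other way with 49.0, 45.5 and 21.1 CPM in controls against 169, 78.4 and 61.7 CPM in libraries labelled cKO. Tgm2, a transglutaminase gene, had 7.26, 6.50 and 6.20 against 56.6, 9.77 and 9.98 CPM. For Nr2f2 and Tgm2 the groups did not overlap either, and labelled cKO library 1 was far above the other 2. Of the 8 response genes 5 had groups that did not overlap, 3 lower and 2 higher, where 18.2% of all genes did so. Meis1 and Meis2 passed without a filter on low counts (adjusted p = 0.00779 and 0.00321, edgeR) and with DESeq2 (9.87e-07 and 6.73e-08). Meis2 also passed with limma on TPM (adjusted p = 0.0309 with a pseudocount of 1) and without labelled cKO library 1 (log2 fold change -1.14, adjusted p = 0.0116, edgeR).

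Both further CYP26 genes were near 0 in the control maxillary process. Cyp26c1 had 0.130, 0.477 and 0.0462 CPM in controls against 13.0, 2.80 and 2.93 CPM in libraries labelled cKO. These control values rest on 2, 8 and 1 counts, so that the log2 fold change of 4.86 (standard error 0.95, adjusted p = 0.148, edgeR quasi-likelihood test) is imprecise, although the groups did not overlap. It passed without a filter on low counts (adjusted p = 0.0137, edgeR) and with DESeq2 (2.28e-06). Cyp26a1, with the DR5 shown above, had 1.23, 1.79 and 0.185 CPM against 30.5, 7.20 and 0.845 CPM, and its groups overlapped (log2 fold change 3.63, standard error 1.23). Rxrg, a partner receptor gene, had 1.04, 0.537 and 0.601 against 5.54, 2.65 and 2.20 CPM (log2 fold change 2.26, adjusted p = 0.183 in edgeR and 0.00449 in DESeq2). The highest value of all 3 genes was in labelled cKO library 1. Among transport genes, Stra6, the retinol uptake receptor gene, had 74.9, 64.0 and 29.6 against 49.2, 46.4 and 36.2 CPM, and its groups overlapped.

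**Figure D4:**
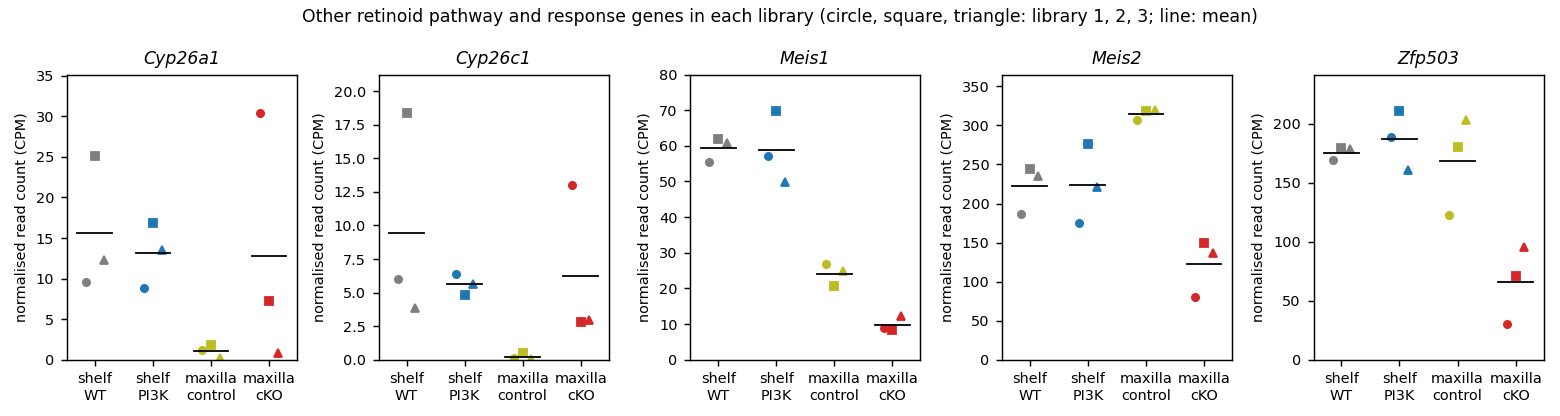
Normalised read count (CPM) of Cyp26a1, Cyp26c1, Meis1, Meis2 and Zfp503 in every library, with the group mean as a line and axes that start at 0. In the maxillary process Meis1, Meis2 and Zfp503 were lower in all 3 libraries labelled cKO than in any control, and library 1 of that group carried the highest Cyp26a1 value, 30.5 CPM.

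PI3K and wild-type palatal shelves were compared to ask what loss of PI3K binding by PDGFRα does there. Aldh1a2 had the clearest difference among the 9 genes, higher in all 3 PI3K libraries, and none of the 9 passed. Of 16525 genes tested, 0 passed the FDR of 0.05 with edgeR (0%), 354 had an unadjusted p under 0.05, and DESeq2 gave 5 calls. With an unadjusted p under 0.05, Aldh1a2 and Dhrs3 were higher, 2 of 9 genes, against 2.14% of all genes in either direction. Groups did not overlap for Aldh1a2 (higher) and Crabp1 (lower), against 6.29% of all genes. Of the 9 genes 5 were higher and 4 lower, with a median log2 fold change of 0.28 against -0.01 for all genes.

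Aldh1a2 had 55.5, 57.2 and 51.3 CPM in wild-type and 73.2, 143 and 122 CPM in PI3K shelves. The wild-type libraries lay close together and the PI3K libraries were all above them and more spread. The mean was 2.07-fold higher (95% interval 1.43 to 2.98), a log2 fold change of 1.05 with a standard error of 0.23, an unadjusted p of 0.00215, the 6th smallest of all genes, and after Benjamini-Hochberg adjustment a p of 0.9997 in edgeR. DESeq2 gave an adjusted p of 0.0314. Leaving out single libraries gave 0.84 to 1.30, with a lowest adjusted p of 0.105, without PI3K library 1.

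Dhrs3 had 20.99, 14.8 and 15.7 CPM in wild-type and 19.8, 34.3 and 22.0 CPM in PI3K shelves, which overlapped in CPM. The log2 fold change was 0.56 (standard error 0.24). The rarer Aldh1a3 had 10.0, 3.37 and 4.64 CPM against 9.47, 3.56 and 4.25 CPM. In both groups library 1 was the highest, and the log2 fold change of -0.06 (standard error 0.51) ran from -0.60 to 0.54 on leaving out single libraries.

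Neither the carriers nor the degrading enzyme passed in the PI3K shelf, and all 3 intervals included 0. Crabp1 had 149.3, 149.6 and 149.7 CPM in wild-type and 135, 135 and 132 CPM in PI3K shelves. The groups were tight and did not overlap, and the log2 fold change of -0.15 (standard error 0.07) had a 95% interval from -0.31 to 0.01. Crabp2 had 96.7, 122 and 115 against 95.7, 109 and 103 CPM (log2 fold change -0.11, 95% interval -0.36 to 0.14). Cyp26b1 had 167, 226 and 229.5 against 159, 199 and 178 CPM (log2 fold change -0.21, 95% interval -0.54 to 0.12). Both pairs of groups overlapped.

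All 3 receptor genes had a higher mean in the PI3K shelf and overlapping groups. Rara had 113, 139 and 121 against 125, 196 and 142 CPM (log2 fold change 0.31, standard error 0.17). Rarb had 15.7, 8.93 and 14.1 against 14.7, 26.8 and 17.1 CPM (0.60, standard error 0.29), and Rarg had 201, 198 and 213 against 205, 312 and 226 CPM (0.28, standard error 0.15). PI3K library 2 was the highest of the 6 shelf libraries for all 3 receptors, and also for Aldh1a2 and Dhrs3. Without it the log2 fold changes were 0.11 for Rara, 0.30 for Rarb, 0.08 for Rarg, 0.29 for Dhrs3 and 0.84 for Aldh1a2. That library had the highest shelf sums of endothelial (437 CPM), ectoderm (1034 CPM) and periocular mesenchyme (113 CPM, against 67.9 to 92.4 CPM in wild-type) markers. Neuron and glia genes had a log2 fold change above 0 for 6 of 7, of which 3 had groups that did not overlap, and summed to 29.6 to 42.6 CPM in wild-type and 29.3 to 64.3 CPM in PI3K libraries, 29.3 being library 2. Skeletal muscle genes had a higher mean for 6 of 6, with sums of 2.41 to 28.6 CPM in wild-type and 14.4 to 103 CPM in PI3K libraries, 14.4 being library 2. The part of these cells in the result was not tested.

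Of the lists, 12 of 12 partner receptors and coregulators had a log2 fold change above 0 in the PI3K shelf, and 0 passed. Among all genes 48.0% were above 0. The median of the list was 0.10, and it was 0.04 without PI3K library 2. The log2 fold change of Ncor1 was 0.00, and its means were 298.3 CPM (wild type) and 298.2 CPM (PI3K). The largest difference in the list was Rxrg, with 1.13, 0.904 and 0.859 CPM in wild-type and 3.62, 1.58 and 3.63 CPM in PI3K shelves. The coactivator gene Ncoa1 was the other one without overlap, with 60.0, 43.5 and 51.1 against 65.4, 71.5 and 64.8 CPM. Among response genes 0 of 8 tested passed (median 0.06), and Hic1, which encodes a zinc finger repressor, had 29.1, 6.82 and 14.1 against 37.3, 34.2 and 46.4 CPM. Of metabolism and transport genes 0 of 14 tested passed. Their median was -0.24 and moved to 0.01 without wild-type library 2, which had the highest Stra6 (46.1 CPM) and Cyp26c1 (18.4 CPM). Meis1, Meis2 and Zfp503, lower in the libraries labelled cKO, had log2 fold changes of -0.01, 0.02 and 0.09 in the PI3K shelf. The Aldh1a2 differences of the 2 genotypes had opposite signs. No test was run between the effects of the 2 genotypes.

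Wild-type palatal shelf and control maxillary process were set side by side to give the order of levels in tissue with an intact Pdgfra and no Cre. Tissue, embryonic day, the floxed Srsf3 allele and the sequencing lane given in the labels differ together here and cannot be told apart, and the same libraries served in the other comparisons. Rarb, Rarg, Crabp1 and Crabp2 were lower in the shelf, 4 of the 9 genes, and none was higher. The FDR of 0.05 was passed by 50.6% of the 15752 genes tested, 23.4% lower and 27.1% higher in the shelf, so 4 of 9 in either direction is near that background. The 4 calls held in all 12 alternative settings.

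Rarb was 3.87-fold lower in the shelf, at 15.7, 8.93 and 14.1 CPM against 52.9, 50.8 and 45.8 CPM (log2 fold change -1.95, standard error 0.21, adjusted p = 0.000445, edgeR quasi-likelihood test). The 2 groups were far apart. Top2b, which shares exon bases with it, had 343 CPM on average in the shelf and 551 CPM in the maxillary process (log2 fold change -0.69), and its part in the Rarb count was not tested. Crabp1 was 2.35-fold lower (log2 fold change -1.24, standard error 0.12, adjusted p = 0.000295, edgeR quasi-likelihood test), from 350.3 ± 49.0 CPM in the maxillary process to 149.5 ± 0.210 CPM in the shelf (SD, n = 3). Crabp2 was 2.27-fold lower (-1.18, standard error 0.14, adjusted p = 0.000644, edgeR quasi-likelihood test), from 251 ± 41.1 to 111 ± 13.2 CPM. Rarg was 1.32-fold lower (-0.40, standard error 0.07, adjusted p = 0.00388, edgeR quasi-likelihood test), from 268 ± 6.71 to 204 ± 8.11 CPM.

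The other 5 did not pass. Aldh1a2 had nearly the same mean in both tissues, with a log2 fold change of 0.05 (95% interval -0.58 to 0.68) that was -0.23 without control library 1 and 0.40 without control library 2. Cyp26b1 was higher in the shelf by 0.78 (95% interval -0.23 to 1.79, adjusted p = 0.170, edgeR quasi-likelihood test), and it passed without control library 3, at 1.38 with an adjusted p of 0.0122. Rara differed by 0.22 (95% interval 0.00 to 0.43, adjusted p = 0.0861, edgeR quasi-likelihood test). Dhrs3 differed by 0.06 (95% interval -0.40 to 0.53) and Aldh1a3 by 0.53 (95% interval -0.57 to 1.62).

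Of the metabolism and transport genes 7 of 12 tested passed, 5 higher and 2 lower in the shelf. Among all genes 50.6% passed, 27.1% higher and 23.4% lower, and that background holds for every list in this paragraph. The 7 of 12 here and the 5 of 8 response genes given below are near it. Cyp26c1 (0.218 against 9.42 CPM), Cyp26a1 (1.07 against 15.7 CPM), the retinaldehyde dehydrogenase gene Aldh1a1 (0.368 against 5.27 CPM), Rdh10, which encodes the main embryonic retinol dehydrogenase (12.3 against 22.7 CPM), and Rdh14 (10.7 against 14.5 CPM) were higher. Fabp5, a fatty acid binding protein gene (131 against 93.9 CPM), was among the lower ones, and the maxillary mean is given first in each pair. The call of Rdh14 (adjusted p = 0.0485, edgeR quasi-likelihood test) was lost with DESeq2-type size factors, without a filter on low counts, with the replicate block, and in 5 of the 6 fits that left out a library, all but the one without control library 3. On leaving out a library 5 to 8 genes of the list passed. Of response genes 5 of 8 passed, with Meis1, Tgm2 and Hic1 higher (log2 fold changes 1.29, 2.31 and 2.88) and Meis2 and Nr2f1 lower (-0.51 and -0.67). Of partner receptors and coregulators 3 of 12 passed, all higher, among them Ppard (0.44) and Ncoa1 (0.86). Fabp5, Nr2f1 and Ncoa1 did not pass without control library 2, nor did Fabp5 without wild-type library 2 or Nr2f1 without wild-type library 1. Surface ectoderm markers were higher in the shelf for 11 of 11, all past the threshold, and neuron and glia markers were lower past it for 4 of 5 tested. Their part in these values was not tested.

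The tables also bear on transcript choice, through the effective length that the quantification used. It is the count divided by the TPM, set relative to the median gene of the library. It shifts when the mix of long and short transcripts of a gene shifts, but a shift alone does not show such a change. In the palatal shelf 0 of 9 genes passed the FDR of 0.05 (limma), where 0.00775% of all genes did, with shifts from -0.13 (Rarb) to 0.01 on the log2 scale. The Rarb shift ran from -0.22 without wild-type library 2 to -0.0042 without wild-type library 3. In the maxillary process 0 of 8 passed, where 0.00909% of all genes did, with shifts between -0.02 and 0.01. Between the tissues Crabp1 (0.07, adjusted p = 0.0422, limma) and Crabp2 (0.06, adjusted p = 0.0456, limma) passed out of 8, where 8.67% of all genes did, and of the 6 fits that left out a library Crabp1 passed in 1, without wild-type library 3, and Crabp2 in 0. Crabp1 has 1 annotated transcript in GENCODE M21, so its shift cannot be a changed mix of annotated transcripts. Crabp2 has 2, of which 1 is coding. What moved the effective length of these 2 genes was not tested. Aldh1a3 had too few counts for the maxillary and the tissue test.

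Likeness of pattern was measured as the correlation of log2 CPM over the 12 libraries after the mean of each tissue was subtracted, against 11080 other protein-coding genes with a mean of at least 5 CPM. It is a description, since the libraries share depth and dissection and the best of many genes were picked. Differences between genotypes were not subtracted, so they remain in the values and can add to r. Aldh1a2 was most like Acss3 (r = 0.94) and Camk1 (0.93), and Aldh1a3 was most like Srpx and Matn2 (0.94 each). Dhrs3 came closest to Csrnp1 (0.95) and Rassf1 (0.92), and Cyp26b1 to Cachd1 and Col8a1 (0.95 each). For the carriers these were Cox6c (0.92) and Lrba (0.90) with Crabp1, and Zbtb48 (0.95) and 2610002M06Rik (0.89) with Crabp2. For the receptors they were Chmp7 (0.97) and Ascc1 (0.96) with Rara, Adamts6 and Pla2g15 (0.92 each) with Rarb, and Prickle1 (0.97) and Dpf1 (0.96) with Rarg. No gene of the 9 was listed among these pairs, because members were left out of the search.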

How the data were processed

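PolyA RNA of 12 libraries was sequenced (NuGen Universal Plus kit, NovaSeq6000, per the labels' protocols). The estimated counts and TPM values were deposited by the authors, and the submitters' processing notes name STAR 2.7.0, Salmon 1.1.0, DESeq2 1.28.1 and mm10, with no role given. The index and the strand setting are not given in the sources used here. Symbols and coordinates came from GENCODE M21 (GRCm38), and 53355 of 53392 identifiers matched, 52175 with the same version.

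Estimated counts were rounded, and edgeR 4.0.16 (run in R 4.3.3) was used for testing, with its quasi-likelihood F-test, TMM and the default filter on low counts. P-values were adjusted by Benjamini-Hochberg over the whole table at an FDR of 0.05. Each comparison was fitted on its own 6 libraries. The effective length was tested with limma 3.58.1 on genes that reached 50 counts in each of the 6 libraries. Alternatives were DESeq2-type size factors, no filter, a block for the replicate number, DESeq2 1.42.0, a limma fit of TPM (log2, pseudocount 1 or 0.1), a count minimum of 20 for the effective length, and leaving out each library. The fits were also run on simulated data with independent libraries. Such data cannot show how a library that stands apart moves the calls. Aldh1a3 had as few as 26 counts in a library.

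The 9 genes, the lists and the markers were chosen with earlier results of these data known. Genes named were the 9, Srsf3, Pdgfra, list members, and for each of the 9 the 2 genes of most similar pattern. A few list genes are not reported here by name. Top2b and the marker Emx2 were added after their values were seen. The series text calls the 3 libraries of a group biological replicates. Sequences were copied from RefSeq (GRCm38.p6).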

Additional observations from a re-analysis of the deposited data

How the results depend on the processing

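Of the log2 fold changes of the 9 genes, 97 of 108 alternative values in the maxillary process, 104 of 108 in the palatal shelf and 99 of 108 between tissues kept their direction and their side of the threshold. The number of genes called in the palatal shelf was 5 with DESeq2 and 0 otherwise. In the maxillary process it was 12, and it was 143 without a filter on low counts, 356 with DESeq2, and 2 (without control library 2) to 29 (without labelled cKO library 1) on leaving out a library. The cause was not tested. Between tissues the median of all genes was 0.16 with limma on log2(TPM + 1) against 0.03, and 69.0% of calls were higher in the shelf against 53.7%. Rara then passed there, at 0.39 (adjusted p = 0.0238, limma), and at 0.39 with log2(TPM + 0.1).

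Whether the replicate numbers pair the libraries could not be settled with 3 libraries per group. Differently numbered libraries had correlations from -0.58 to 0.40 in the palatal shelf and from -0.23 to 0.14 in the maxillary process. Between tissues these ran from -0.11 to 0.13. Same-numbered libraries had correlations of 0.54, 0.22 and -0.22 in the palatal shelf, 0.08, 0.11 and 0.23 in the maxillary process and -0.14, 0.03 and -0.02 between tissues, and not every library correlated best with its own number. With the replicate block 0, 40 and 6835 genes were called in these comparisons, Rarb had -0.076 in the maxillary process, and Cyp26b1 passed between tissues (0.99, adjusted p = 0.0419, edgeR).

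Values near 0 changed sign. Rarb in the maxillary process was -0.10 with both limma fits on TPM and ran from -0.47 to 0.26 on leaving out a library. Such ranges were -0.20 to 0.13 for Dhrs3 there, -0.60 to 0.54 for Aldh1a3 in the palatal shelf, and between tissues -0.23 to 0.40 for Aldh1a2, -0.052 to 0.92 for Aldh1a3 and -0.12 to 0.18 for Dhrs3.

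Effective length shifts ranged on leaving out a library from -0.0012 to 0.010 (Aldh1a2), -0.043 to 0.029 (Aldh1a3), -0.0019 to 0.015 (Rara), -0.011 to 0.0078 (Crabp1), -0.0067 to 0.0071 (Crabp2) and -0.038 to 0.052 (Dhrs3) in the palatal shelf. In the maxillary process they ranged from -0.044 to 0.037 (Rarb), -0.0036 to 0.0082 (Crabp1), -0.0020 to 0.0087 (Crabp2) and -0.058 to 0.053 (Dhrs3). Between tissues they ranged from -0.054 to 0.041 (Dhrs3), 0.066 to 0.084 (Crabp1) and 0.055 to 0.068 (Crabp2). With a minimum of 20 counts Crabp2 in the palatal shelf had -0.00026, and between tissues Dhrs3 had -0.0063, Crabp1 0.067 and Crabp2 0.054. With the replicate block Crabp1 had 0.074 and Crabp2 0.061, neither past the threshold. The log2 fold change intervals of Aldh1a3, the member with the fewest counts, were the widest or next to widest in each comparison. The part of depth in that was not tested.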
